A study of Mus musculus with 2 samples.

Results

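Pericytes and vascular smooth muscle cells, together called mural cells, were represented by 39 genes of contraction, signalling and metabolism. The genes were chosen by symbol, with earlier results of these data known. All 39 were found among the 55536 annotated genes. The measurements were total RNA-seq of whole heart from male B6CASTF1/J mice, a hybrid of the B6 and CAST strains, at 2 months of age, with no treatment named. There were 2 libraries in 1 group, called replicate 1 and replicate 2, each made from 300 ng of RNA with ribosomal RNA reduced and ERCC spike-in RNA added. The labels name 2 separate hearts but give both the same donor entry, so the libraries are read here as 2 mice; where they were not separate animals, their spread would be technical. No second group was sampled, so the comparisons are between genes and transcript forms within a heart and between the hearts. No test between the mice is printed because each has 1 library. None is printed for pairs of genes within a heart either, because the lowest two-sided p of an exact paired test over 2 mice would be 0.5. In whole tissue, fewer cells of a type and less RNA per cell cannot be told apart.

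Pericytes sit on capillaries inside the endothelial basement membrane, and vascular smooth muscle cells wrap arterioles, arteries and veins. Both depend on platelet-derived growth factor from the endothelium and on Notch signals. Smooth muscle contracts when calcium activates myosin light chain kinase, which phosphorylates myosin, and it relaxes when myosin phosphatase removes the phosphate, a step that nitric oxide and cyclic GMP favour. Several of the genes are also made by cardiomyocytes: phospholamban (Pln), calsequestrin (Casq2), desmin (Des), synemin (Synm), the channel subunit Abcc9 and the myosin phosphatase subunit Ppp1r12b are known from both.

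The gene totals were 38963537 expected counts in replicate 1 and 44321132 in replicate 2, and the biological coefficient of variation over 15170 genes was 6.63%. Levels are in TPM, a transcript's share of all transcripts scaled to a fixed total, a unit corrected for transcript length, so they can be compared between genes. Cardiomyocyte markers were all present, with Myl2 at 7631 and 8510 TPM. Each of 7 pericyte markers and 6 vascular smooth muscle markers reached 1 TPM in both mice, with summed levels of 148 and 158 TPM for the former and 99.4 and 137 TPM for the latter. Most of the pericyte sum was a single gene, Rgs5, at 103 and 109.7 TPM. Red cell markers summed to 13712 TPM in replicate 1 and 4292 TPM in replicate 2, and adipocyte markers to 11.4 and 23.6 TPM.

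Alternative coding sequences mark the forms of 3 of these genes, and they are shown because the transcript results turn on them. In Myh11, smooth muscle myosin heavy chain (mm10 chromosome 16, 14194535 to 14291372, minus strand), an extra exon of 21 coding bases (14248580 to 14248600), in capitals, tells the form with an insert from the form without it, where capitals mark the bases on either side of the junction.
Myh11 insert: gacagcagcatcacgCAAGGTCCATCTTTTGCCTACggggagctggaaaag
Myh11 without insert: gacagcagcatcacGGgggagctggaaaag

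The Myh11 transcripts also end in different coding sequences, known as SM1 and SM2. Capitals mark the 130 bases particular to the long SM1 end (14195055 to 14195184) and the 28 bases of the short SM2 end (14198061 to 14198088).
Myh11 SM1 end: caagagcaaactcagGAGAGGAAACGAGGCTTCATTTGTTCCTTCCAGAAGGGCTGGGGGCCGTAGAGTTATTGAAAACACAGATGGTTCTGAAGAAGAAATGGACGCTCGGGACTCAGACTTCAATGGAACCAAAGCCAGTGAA
Myh11 SM2 end: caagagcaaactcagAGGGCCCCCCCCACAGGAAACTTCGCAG

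Abcc9, the sulfonylurea receptor SUR2 of ATP-sensitive potassium channels (chromosome 6, 142587862 to 142702315, minus strand), has alternative last coding exons. The form known from heart and skeletal muscle is called SUR2A and that known from smooth muscle SUR2B. Capitals mark the 135 coding bases of each exon, at 142594008 to 142594142 for the first of them in the gene and at 142590369 to 142590503 for the last, and the same stretch of the paralog Abcc8 (chromosome 7, 46104627 to 46104761).
Abcc9 first end: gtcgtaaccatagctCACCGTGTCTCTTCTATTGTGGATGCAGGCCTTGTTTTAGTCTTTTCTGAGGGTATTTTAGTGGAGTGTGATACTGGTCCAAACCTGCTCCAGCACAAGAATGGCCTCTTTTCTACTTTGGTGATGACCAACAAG
Abcc9 last end: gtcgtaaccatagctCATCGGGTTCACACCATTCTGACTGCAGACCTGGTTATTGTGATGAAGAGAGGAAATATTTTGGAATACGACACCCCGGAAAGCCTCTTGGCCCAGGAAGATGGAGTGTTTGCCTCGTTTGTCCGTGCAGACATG
Abcc8 end: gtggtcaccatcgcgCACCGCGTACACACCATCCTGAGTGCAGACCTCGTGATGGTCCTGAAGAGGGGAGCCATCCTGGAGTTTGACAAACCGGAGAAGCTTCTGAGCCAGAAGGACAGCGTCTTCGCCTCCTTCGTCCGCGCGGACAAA
Over these 135 positions the last end matched Abcc8 at 94 bases (69.6%), and the first end matched it at 70 bases (51.9%). The Abcc9 ends matched each other at 69 bases (51.1%).

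The smoothelin gene Smtn (chromosome 11, 3517523 to 3540612, minus strand) has an inner start that opens a short reading frame of 436 codons, of whose 1308 coding bases 399 are not in the long frame, and an outer start that opens frames of 921 to 946 codons. The first 45 coding bases from each start are given with the start codon in capitals.
Smtn short start: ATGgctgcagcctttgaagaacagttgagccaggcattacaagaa
Smtn long start: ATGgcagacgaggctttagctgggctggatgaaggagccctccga

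All 39 genes reached 1 TPM in both mice, as did 10957 of 22015 nuclear protein-coding genes. Mean levels of the 39 ran from 1.40 to 2621 TPM. Their median was 8.60 ± 0.94 TPM (SD, n = 2 mice), against 8.68 ± 0.21 TPM for the 10957 nuclear protein-coding genes detected at 1 TPM in both. Mean levels were at least 100 TPM for 4 genes, from 10 to 100 TPM for 14, from 5 to 10 TPM for 10, and from 1 to 5 TPM for 11. The plot of levels by role shows that the genes above 100 TPM are Pln, Des and Casq2, which are known from cardiomyocytes, and the pericyte marker Rgs5. Which cells of the heart this RNA came from was not tested. Together the 39 genes held 1.06 ± 0.05% of nuclear protein-coding TPM, and without Pln, Des and Casq2 they held 0.167 ± 0.009%. In the order of mean levels, 17 of 38 neighbouring genes did not overlap between the mice. Each of the 8 highest genes, from Pln down to Smtn, stood apart from the next, and lower in the order most neighbours overlapped. Overlap also depends on how closely the levels are spaced, and no share over all genes is set beside this count.

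**Figure D1:**
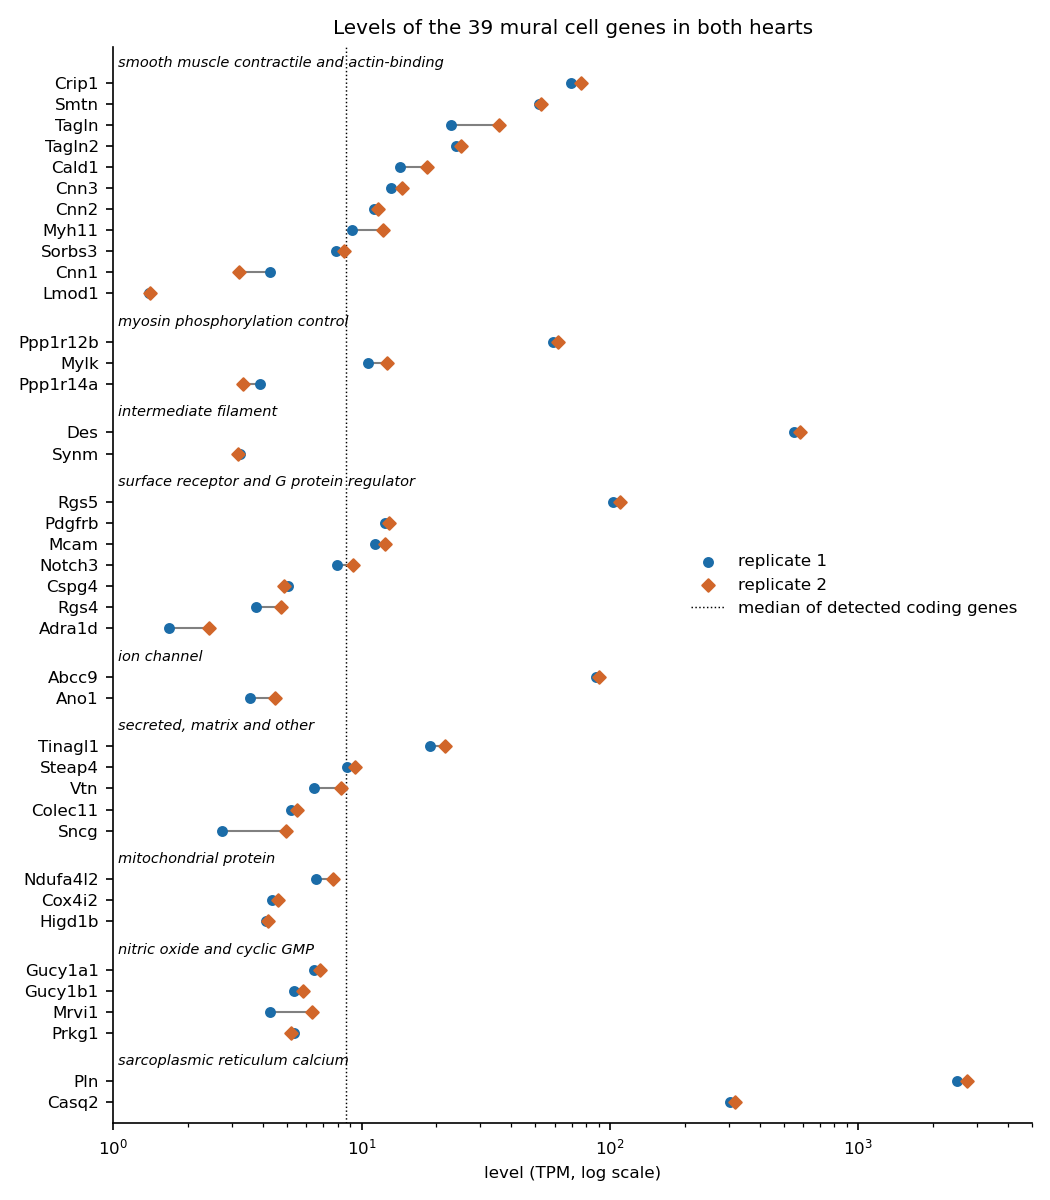
Level of each of the 39 genes in TPM (log axis) in replicate 1 (circles) and replicate 2 (diamonds), grouped by role, with the median of detected coding genes as a dotted line at 8.68 TPM. Pln, Des, Casq2 and Rgs5 lie above 100 TPM, and Lmod1 and Adra1d are the lowest.

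The 11 contractile and actin-binding genes had a median of 13.8 ± 0.96 TPM, with Crip1 and Smtn the highest and Cnn1 and Lmod1 the lowest. Tagln (chromosome 9, 45929619 to 45936058), transgelin or SM22 alpha, a calponin-like actin binder of smooth muscle, stood at 22.8 TPM in replicate 1 and 35.9 TPM in replicate 2. Its relative Tagln2, known from many cell types, stood at 24.0 and 25.1 TPM. Tagln was thus below Tagln2 in replicate 1 and above it in replicate 2, and their ranges overlapped. The second quantifier, a separate transcript table of the same reads, placed Tagln lower, at 0.776 times Tagln2 on average.

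Myh11, the motor of smooth muscle contraction, was at 9.16 and 12.2 TPM. The nonmuscle heavy chain Myh9 stood 3.14 ± 0.51 times above it, at a mean of 33.0 TPM, and Myh11 stood 1.23 times above the nonmuscle chain Myh10 in each mouse. Cnn1, calponin of differentiated smooth muscle, was the lowest calponin, at 4.29 and 3.22 TPM, with Cnn2 at 11.3 and 11.6 TPM and Cnn3 at 13.1 and 14.5 TPM. Cnn2 stood at 0.830 ± 0.041 times Cnn3, and at 0.530 times with the second quantifier. Cnn2 was 3.11 ± 0.69 times and Cnn3 3.78 ± 1.02 times Cnn1, and the calponins known beyond smooth muscle were thus higher than Cnn1 in both mice.

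Smtn, an actin-binding protein of contractile smooth muscle, was at 52.0 and 52.6 TPM, in a narrow range, and 9.65 times its relative Smtnl2. Crip1, a small LIM protein, stood at 69.5 and 76.7 TPM, below its relative Crip2, which was 8.28 ± 0.02 times higher. Cald1, caldesmon, which holds actin from myosin, was at 14.2 and 18.3 TPM. Sorbs3 (vinexin), an adaptor of cell adhesions, was at 7.88 and 8.50 TPM, and its relative Sorbs2 was at 206 and 223 TPM. Lmod1, the smooth muscle leiomodin that nucleates actin filaments, was the lowest of all 39 genes at 1.39 and 1.40 TPM. Lmod2, its striated muscle relative, was 202 ± 7 times higher.

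Control of myosin phosphorylation was uneven in level. Mylk, the smooth muscle and nonmuscle light chain kinase, was at 10.7 and 12.6 TPM, and the cardiac kinase Mylk3 was 14.5 ± 0.4 times higher. Ppp1r12b, a targeting subunit of myosin phosphatase, was at 59.2 and 61.8 TPM, 2.72 ± 0.01 times its relative Ppp1r12a, which is the form best known from smooth muscle. Ppp1r14a, the phosphatase inhibitor CPI-17, was at 3.89 and 3.33 TPM, and Ppp1r14b was 9.06 ± 2.00 times higher.

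The intermediate filament genes stood far apart. Des was at 553 and 583 TPM and Synm, a large partner protein of desmin, at 3.23 and 3.19 TPM, so that Des was 177 ± 8 times Synm. Vimentin (Vim), the filament of mesenchymal and endothelial cells, stood lower than Des by 5.70 ± 0.04 times.

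Of the receptors and regulators, Rgs5 (chromosome 1, 169655501 to 169695813), which shortens G protein signals and is a classic marker of pericytes, stood at 103 and 109.7 TPM. Its neighbour and relative Rgs4 was at 3.75 and 4.75 TPM, so that Rgs5 was 25.3 ± 3.0 times Rgs4. Pdgfrb, the receptor for platelet-derived growth factor B that recruits pericytes, was at 12.5 and 12.9 TPM. It was 1.39 and 1.22 times Pdgfra, the receptor of fibroblasts. Mcam (CD146), an adhesion molecule of mural and endothelial cells, was at 11.3 and 12.5 TPM, and the ranges of Pdgfrb and Mcam overlapped.

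Notch3, the Notch receptor of mural cells, was at 7.93 and 9.26 TPM and below the more widely made Notch1, which was 1.36 ± 0.07 times higher. Cspg4 (NG2), a pericyte surface proteoglycan, was at 5.05 and 4.85 TPM. Adra1d, an alpha-1 adrenergic receptor of arteries, was the second lowest of the 39 genes at 1.68 and 2.43 TPM. The receptors known from cardiomyocytes were higher, Adra1a by 9.94 ± 2.97 times and Adra1b by 6.90 ± 0.99 times.

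The channel genes were Abcc9, at 87.5 and 89.9 TPM, and Ano1, a calcium-activated chloride channel of smooth muscle, at 3.57 and 4.47 TPM. Abcc9 was 5.40 ± 0.18 times its paralog Abcc8. Kcnj8 (Kir6.1), the pore that pairs with Abcc9 in mural cells, was at 9.01 and 9.04 TPM, so Abcc9 exceeded it 9.83 ± 0.17 times.

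The secreted and matrix-linked genes were led by Tinagl1, a basement membrane protein, at 18.9 and 21.6 TPM. Steap4, a metalloreductase known from pericytes, was at 8.77 and 9.43 TPM, close to its relative Steap3, to which its ratio was 0.932 and 0.976. Vtn, the adhesion protein vitronectin, was at 6.46 and 8.27 TPM, and the lectin Colec11 at 5.22 and 5.49 TPM. Sncg, gamma-synuclein, was at 2.74 and 4.95 TPM.

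The mitochondrial proteins typical of mural cells were low beside their common relatives. Higd1b was at 4.12 and 4.20 TPM, Cox4i2 at 4.37 and 4.62 TPM and Ndufa4l2 at 6.53 and 7.70 TPM. Higd1a was 18.4 ± 0.2 times Higd1b, and 28.2 times with the second quantifier. Cox4i1, the common form of this subunit of cytochrome oxidase, was 409 ± 4 times Cox4i2, and Ndufa4 was 173 ± 15 times Ndufa4l2.

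Genes of nitric oxide and cyclic GMP signalling lay within a narrow band. Gucy1a1 and Gucy1b1, the subunits of soluble guanylate cyclase that senses nitric oxide, were at 6.41 and 6.78 TPM and at 5.32 and 5.80 TPM, a ratio of 1.19 ± 0.03, and the alternative subunit Gucy1a2 was lower than Gucy1a1 by 2.37 ± 0.11 times. Prkg1, cyclic GMP-dependent kinase I, was at 5.35 and 5.21 TPM, while Prkg2 was at a mean of 0.090 TPM. Mrvi1 (IRAG), the kinase's substrate on calcium stores, was at 4.29 and 6.32 TPM and had the widest range of the 4. That range was not seen with the second quantifier, at 5.03 and 5.20 TPM. The expected counts of Mrvi1 were 605 and 743, which is 1.04-fold apart after scaling for library size.

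The calcium store genes were the highest, beside Des. Pln (chromosome 10, 53337667 to 53345987), the inhibitor of the calcium pump SERCA, was at 2502 and 2741 TPM and ranked 14th among nuclear protein-coding genes. It stood at 0.527 ± 0.017 times the pump gene Atp2a2 and 87.9 ± 0.1 times the related inhibitor Sln. Casq2, which buffers calcium in the store, was at 303 and 319 TPM, and 176 ± 37 times Casq1.

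**Figure D2:**
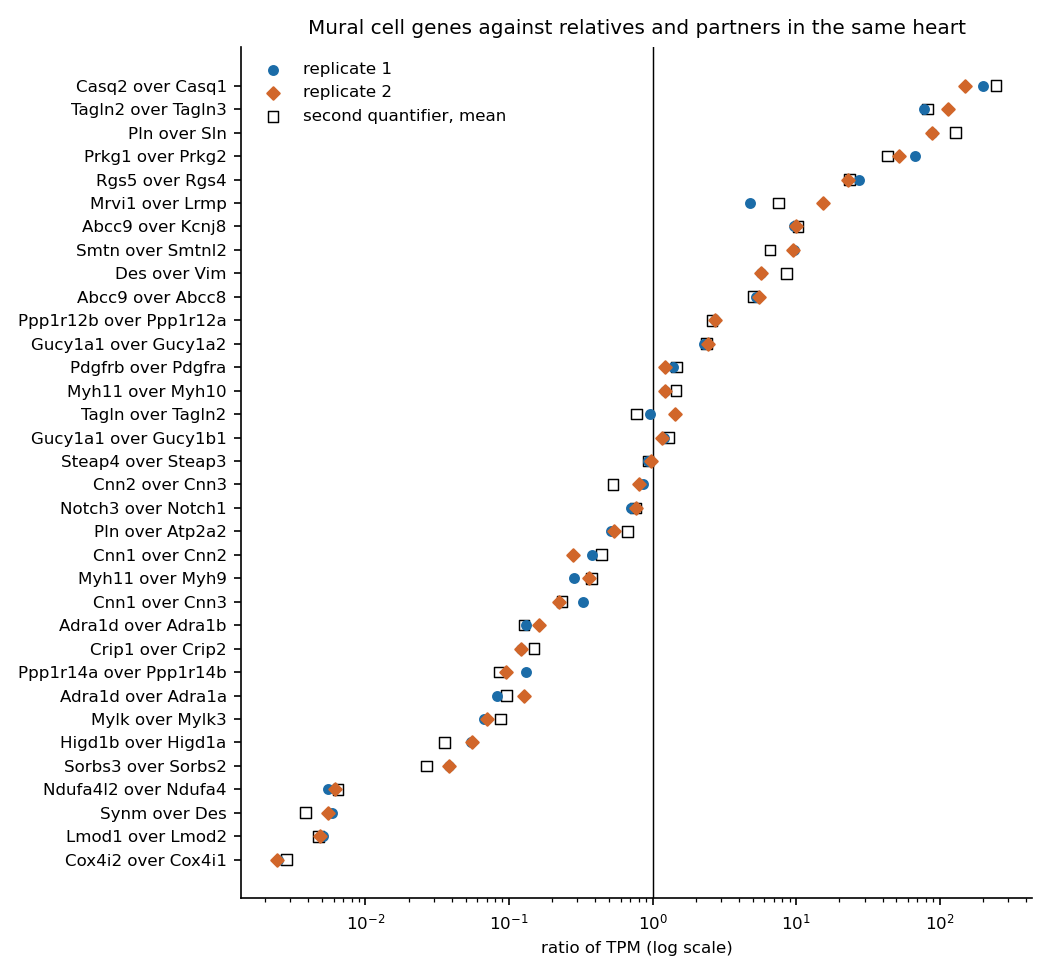
Ratio of the TPM of 2 genes in the same heart (log axis) for 34 pairs, in replicate 1 (circles) and replicate 2 (diamonds), with the mean of the second quantifier as open squares. The first gene was higher in both mice in 15 pairs and the second in 18, and Tagln over Tagln2 fell on either side of 1.

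Other genes of the same pathways were taken from 4 lists for this tissue. Of 19 further smooth muscle contractile genes, 17 reached 1 TPM in both mice; Tpm1, shared with cardiomyocytes, was highest at 3700.5 and 3978 TPM, followed by Nexn at 132 and 129.8 TPM and Myl6 at 90.2 and 92.7 TPM. Of 14 regulators of smooth muscle genes, 12 were detected. Srf, at 32.8 and 35.1 TPM, and its partner Myocd, at 30.2 and 33.4 TPM, led them, followed by Klf4 at 10.6 and 13.6 TPM.

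Of 16 genes around nitric oxide and cyclic GMP, 12 were detected, led by Pde1c at 31.1 and 32.8 TPM, Pde3a at 24.2 and 27.7 TPM and Npr2 at 14.5 and 16.6 TPM. Of 23 genes of pericyte and mural signalling, 21 were detected, led by Art3 at 288 and 305 TPM, Itga7 at 57.2 and 59.5 TPM and Agtr1a at 21.4 and 21.2 TPM. These are levels of whole heart, and which cells made the RNA of the listed genes was not tested. No gene of these lists was at 0 TPM, and none of those tested was 1.5-fold apart between the mice. Of all 22015 nuclear protein-coding genes, 10957 reached 1 TPM in both mice.

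The mice were then compared gene by gene, as the log2 ratio of replicate 2 over replicate 1 of expected counts scaled by TMM, edgeR's library scaling, for the 12453 genes with a mean of at least 50 counts. Each mouse has 1 library, so there is no replicate check on these differences, and the 95% Clopper-Pearson intervals cover counting error only. All 39 genes were tested. Of them, 1 was at least 1.5-fold higher in replicate 2, where 0.827% of all tested genes were (103 genes), and 0 were at least 1.5-fold higher in replicate 1, where 1.25% were (156 genes). By any amount, 32 of the 39 were higher in replicate 2, against 52.0% of all tested genes. The counting interval lay wholly above 0 for 13 of the 39, against 10.9% of all tested genes (1363 genes), and wholly below 0 for 0 of them, against 8.62% (1074 genes). These intervals narrow with counts, so the shares also depend on how many counts a gene has.

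The median log2 ratio of the 39 genes was 0.06, and that of all tested genes was 0.01. The median absolute log2 ratio was 0.079 for the 39 genes and 0.078 for all tested genes. Scaling on the spike-ins moved the median of all genes to 0.18 and that of the 39 to 0.23, with 38 of the 39 higher in replicate 2 against 87.9% of all genes. Relative to the median of all genes, 31 of the 39 were higher in replicate 2. A change of scaling moves every gene alike and cannot alter that count; with counts of the second quantifier, which can, it was also 31.

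**Figure D3:**
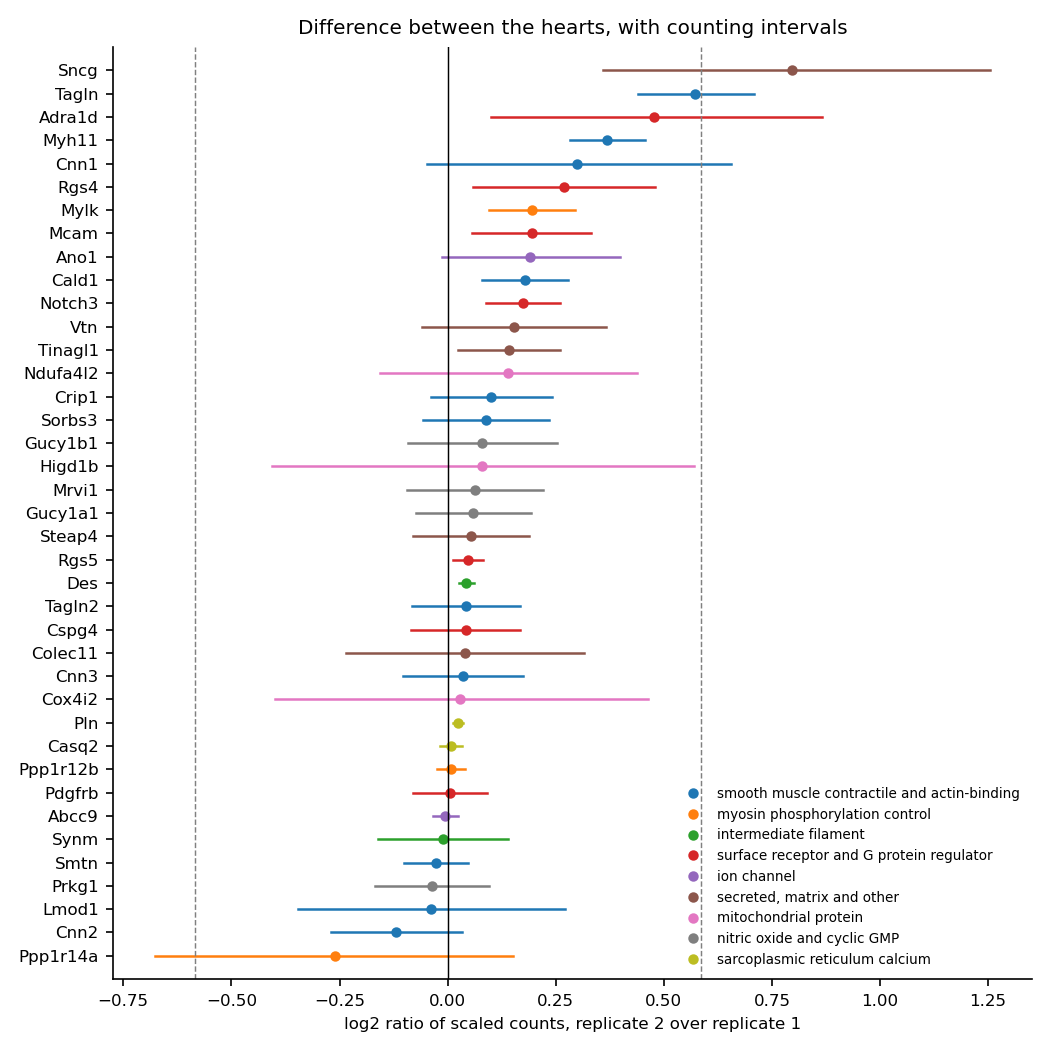
Log2 ratio of TMM-scaled counts, replicate 2 over replicate 1, for the 39 genes in order of size, coloured by role, with 95% counting intervals as bars and 1.5-fold as dashed lines. Sncg lies past the dashed line and Tagln just short of it, and 32 genes lie above 0.

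The gene farthest apart was Sncg (chromosome 14, 34370274 to 34374789), with 64 and 131 counts and a log2 ratio of 0.80 (interval 0.36 to 1.25). It was the one gene past 1.5-fold, but with the second quantifier its log2 ratio was 0.44. Sncg is known from adipocytes as well as mural cells, and all 5 adipocyte markers were higher in replicate 2, 4 of them past 1.5-fold, with Ucp1 at 1.43 and 6.95 TPM and a list median of 0.91. Their part in the Sncg difference was not tested.

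Tagln followed with 716 and 1252 counts and a log2 ratio of 0.57 (0.44 to 0.71). Adra1d came next, with 94 and 154 counts and a ratio of 0.48 (0.10 to 0.86), and then Myh11, with 1792 and 2720 counts and 0.37 (0.28 to 0.46). Under spike-in scaling Adra1d and Tagln passed 1.5-fold, at 0.65 and 0.74, and with DESeq2 size factors or total counts Tagln alone joined Sncg. Spike-in scaling also raised the count of all tested genes that were 1.5-fold higher in replicate 2, from 103 to 238.

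Smaller ratios with an interval above 0 were those of Rgs4 at 0.27, Mylk and Mcam at 0.19, Cald1 at 0.18, Notch3 at 0.17, Tinagl1 at 0.14, Rgs5 at 0.05, Des at 0.04 and Pln at 0.02. Cnn1 was at 0.30, with an interval of -0.05 to 0.66 on 116 and 168 counts. At the other end, Ppp1r14a was at -0.26 (-0.68 to 0.15) on 101 and 99 counts and Cnn2 at -0.12 (-0.27 to 0.03), and both intervals included 0.

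The markers set for each mural cell type showed different sizes of ratio. Of 6 vascular smooth muscle markers, 5 were higher in replicate 2 and 4 had an interval above 0, where 10.9% of all tested genes had one. Their median log2 ratio was 0.33, with a range of -0.04 (Lmod1) to 0.57 (Tagln). Among the 5, Cnn1 had an interval that included 0. By TPM, Cnn1 was lower in replicate 2, at 4.29 and 3.22 TPM, and at 4.98 and 4.31 TPM with the second quantifier. The 6 markers include Acta2, smooth muscle actin, which is not among the 39 genes. Acta2 stood at 36.3 and 51.2 TPM, with a ratio of 0.51 (0.42 to 0.60). Myl9, a light chain of smooth muscle myosin and also 1 of the 6, was at 0.22 (0.08 to 0.35). Of 7 pericyte markers, 6 were higher in replicate 2 and 2 had an interval above 0, with a median of 0.05 and a range of -0.02 (Kcnj8) to 0.17 (Notch3). The difference between these lists was not tested. Wider sets of smooth muscle genes had smaller ratios: the 11 contractile and actin-binding genes among the 39 had a median of 0.09, with 8 higher in replicate 2 and 3 with an interval above 0, and the 17 tested of the 19 further contractile genes had a median of 0.06 and a range of -0.12 to 0.51, with 12 higher in replicate 2.

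Beside these values, the 8 cardiomyocyte markers had a median log2 ratio of 0.04, the 8 endothelial markers -0.04, the 8 fibroblast markers -0.04, the 6 macrophage markers 0.13 and the 4 epicardial markers 0.13, with 0 genes of these lists past 1.5-fold. Of 4 Schwann cell markers, summed at 3.85 and 3.63 TPM, the 2 tested had a median of -0.18. The 4 red cell markers were all at least 1.5-fold higher in replicate 1, with a median of -1.79 and a range of -2.31 to -1.64. The part of blood and fat in the ratios of the 39 genes was not tested.

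**Figure D4:**
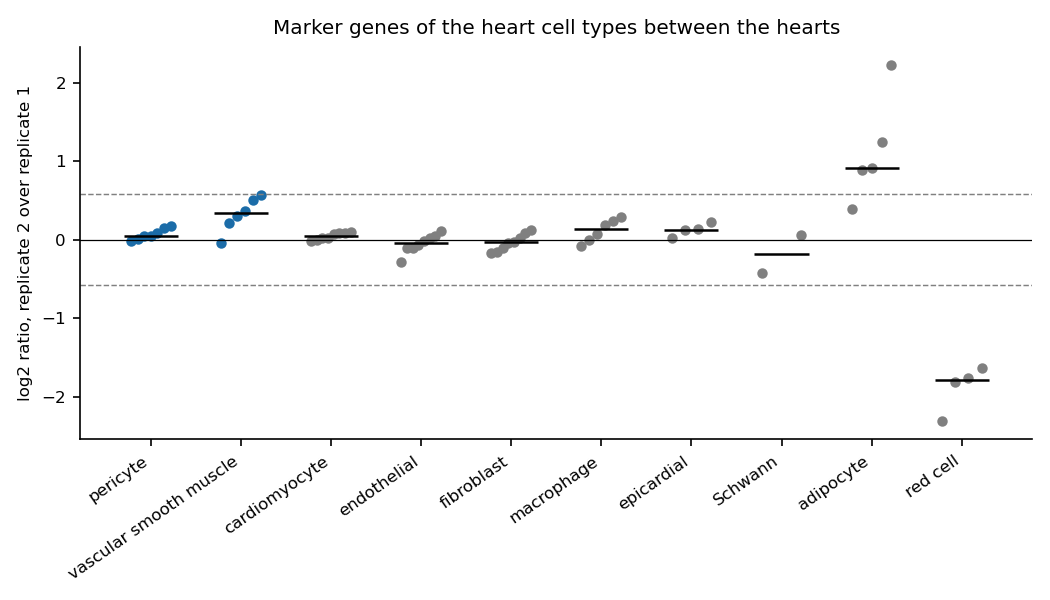
Log2 ratio, replicate 2 over replicate 1, of single marker genes (points) with the median of each list (bars) and 1.5-fold as dashed lines. The list of 6 vascular smooth muscle markers has a median of 0.33 and that of 7 pericyte markers 0.05, while the 11 contractile genes among the 39, not drawn as a list, have 0.09; the adipocyte list has the highest median, at 0.91, and the red cell genes lie from -2.31 to -1.64.

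Transcript tables showed which forms of these genes were counted. Of the 39 genes, 35 have 2 or more annotated transcripts. The most abundant transcript held at least 75% of the gene's TPM in both transcript tables for 10 of them, among them Pdgfrb, Rgs4, Rgs5, Notch3, Vtn and Ppp1r12b, for which Ppp1r12b-201 held 81.9% and, with the second quantifier, 80.04%.

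Myh11 RNA came mostly with the SM1 end. Transcripts with this end were at 8.69 and 10.9 TPM and the SM2 transcript at 0.27 and 1.18 TPM, which is 2.95% and 9.70% of the gene. The second quantifier gave SM2 6.87% and 18.7%, so SM2 was the lesser form in both mice by both methods and its share was higher in replicate 2 by both. The form with the 21-base insert, annotated together with the SM1 end, held 24.1 ± 2.6% of Myh11 TPM, and 28.5 ± 2.1% with the second quantifier.

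Abcc9 RNA carried both ends. The first end, that of 4 transcripts, was at 54.2 and 59.3 TPM, and the last end, which resembles Abcc8 and is that of Abcc9-203 alone, at 30.96 and 28.9 TPM. The first end thus exceeded the last 1.75 times in replicate 1 and 2.05 times in replicate 2, and 2.21 and 3.08 times with the second quantifier. The most abundant single transcript was Abcc9-203 (33.8%) in one table and Abcc9-202 (34.1%) in the other.

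Smtn RNA was mostly the short form from the inner start, at 32.9 and 33.7 TPM, against 10.2 and 10.8 TPM for the long forms. The ratio was 3.18 ± 0.07, and 2.79 ± 0.09 with the second quantifier. A short smoothelin is known from visceral muscle and a long one from vascular muscle.

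Prkg1-201, with the alpha start, was at 3.47 and 3.56 TPM and Prkg1-202, with the beta start, at 1.40 and 1.39 TPM. The alpha and beta forms of this kinase differ in the regulatory part at the start of the protein, and alpha exceeded beta 2.52 ± 0.06 times, or 1.90 ± 0.34 times with the second quantifier. For Cald1, complete short frames of 530 to 554 codons, the nonmuscle type, were at 10.3 and 12.3 TPM, and the frame of 768 codons with the long central part, the type of differentiated smooth muscle, at 0.59 and 0.14 TPM. The short frames held 72.3% and 67.6% of Cald1 TPM, but 67.1% and 46.9% with the second quantifier, which put 0.00% and 36.4% on the incomplete Cald1-207. Synm-201, of 1259 codons, held 57.7 ± 9.0% and Synm-202, of 1561 codons, 32.7 ± 0.2% of synemin TPM.

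For Mylk the quantifiers differed. Mylk-201, the long kinase of 1950 codons, was at 4.70 and 5.40 TPM and Mylk-203, of 159 codons, which holds only the end of the protein known as telokin, at 2.21 and 2.44 TPM, a ratio of 2.17 ± 0.06. The second quantifier gave 0.949 ± 0.041. Every coding base of Mylk-203 is also in Mylk-201.

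**Figure D5:**
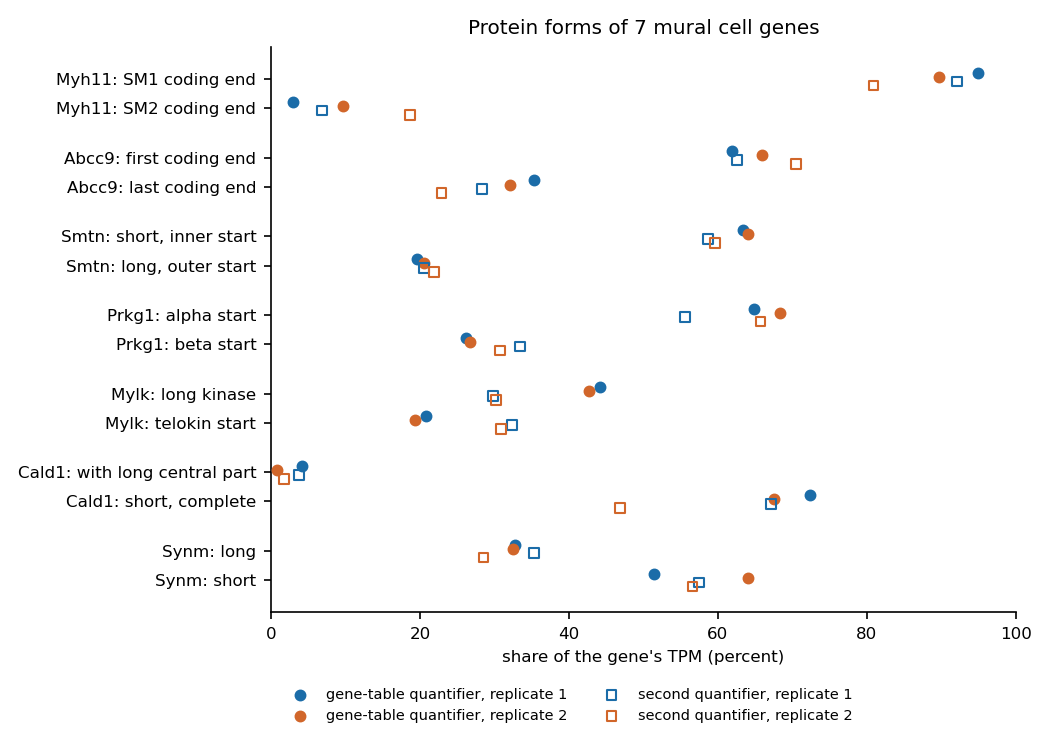
Share of a gene's TPM, in percent, on the forms of 7 genes in replicate 1 (blue) and replicate 2 (orange), by the quantifier of the gene table (filled circles) and the second quantifier (open squares). The SM1 end of Myh11, the first end of Abcc9, the short Smtn frame and the alpha start of Prkg1 lead by both, and the order of the Mylk forms differs.

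The most abundant transcript differed between the quantifiers for 10 genes: Cnn1, Mylk, Cald1, Abcc9, Gucy1a1, Tinagl1, Mrvi1, Sorbs3, Crip1 and Pln. In 4 of them, Abcc9, Gucy1a1, Tinagl1 and Pln, both transcripts have the same number of codons. Pln-201 led in one table with 57.1% and Pln-204 in the other with 57.4%, and the transcripts of Pln listed with TPM all encode 52 codons. For Crip1, Crip1-201 held 98.2% in one table, while the noncoding Crip1-203 held 69.9% in the other. For Sorbs3 the leading frame also differed between the mice: Sorbs3-201, of 733 codons, held 60.4% in replicate 1 and 37.6% in replicate 2, and Sorbs3-203, of 680 codons, 33.2% and 60.7%. For Mrvi1 the incomplete Mrvi1-203, of 715 codons, led in one table (38.3%) and Mrvi1-201, of 856 codons, in the other (31.2%).

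The same happened within Des and Casq2 without a change of the leading transcript. Des-202, a transcript with a retained intron, was at 15.4 and 8.03 TPM in one table and at 409 and 421 TPM with the second quantifier, whose total for Des was 922 TPM against 568 TPM. For Casq2 the noncoding Casq2-202 and Casq2-203 held 16.1% and 9.27% with the second quantifier and 0.00% and 0.73% in the other table. Over the 39 genes, the second quantifier gave a higher level for 33, with a median ratio of 1.14, and for all detected nuclear coding genes the median ratio was 1.15. Tagln-201 led Tagln in both tables, with 59.3% in one and 99.0% in the other. Tagln2-202 (76.8% and 83.9%) and Cnn2-201 (70.5% and 82.8%) led in both tables.

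For 6 genes, Cnn1, Cnn2, Smtn, Lmod1, Cspg4 and Abcc9, the TPM ratio between the mice had the opposite sign of the count ratio; the cause was not tested, and Lmod1 has 1 annotated transcript. Cnn1 was at 4.29 and 3.22 TPM while its counts were 116 and 168. Cnn1-202, an incomplete transcript, was at 1.92 TPM in replicate 1 and 0.00 TPM in replicate 2, and the complete Cnn1-201 was at 0.99 and 1.43 TPM.

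Some reads may belong to other genes. Of the 39 genes, 24 shared under 1% of their 31-base words with any other gene. Tagln shared 58.2% and Pln 55.5% of theirs with the noncoding genes Gm48529 and Gm47644 on the opposite strand, which held 24 and 36 counts and 84 and 73 counts in the mice. Cnn3 shared 32.0% with other genes, the largest part, 15.3% of its words, with Gm42928 (1 and 3 counts), and Smtn 12.0% with Gm11946 (0 and 3 counts). The coding genes Pcsk7, Ttc23, Shmt2, Cstf2t and Cep85l overlap Tagln, Synm, Ndufa4l2, Prkg1 and Pln on the opposite strand, and whether counting used strand is not given in the sources used here.

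Promoter windows, 250 bases before to 50 after a start in the RefSeq table of build GRCm38.p6, were found for 31 of the 39 genes, in 37 windows. They were searched on both strands for the CArG box, the site of serum response factor, as CC, then 6 bases that are A or T, then GG. A box stood in 1 of the 37 windows, a window of Cnn2 and so of 1 of the 31 genes, and in 1.63% of all 32851 windows. It is shown in capitals with 25 bases on each side, on chromosome 10 at 79988544 to 79988553, plus strand, 56 bases before the start.
Cnn2 promoter: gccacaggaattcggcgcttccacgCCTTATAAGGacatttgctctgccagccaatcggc
Myh11, Tagln, Pdgfrb, Higd1b, Cox4i2, Ndufa4l2, Adra1d and Sorbs3 were not matched in the table. A match is a sequence description, and its absence says only that these letters are not in the window.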

How the data were processed

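Total RNA-seq of mouse heart was taken from 2 libraries of 1 group, and replicate numbers came from the labels. Each library comes with 1 gene table and 2 transcript tables, on mm10 per the labels and with GENCODE M21 per the deposited description of the files. Gene levels are the TPM and FPKM, and gene counts the expected counts, of the authors' gene table, per the file headers. The other transcript table, called here the second quantifier, gives the authors' estimated counts and TPM per transcript, per the file headers. The columns are those that RSEM and kallisto write; aligner, quantifiers and versions: not given in the sources used here.

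Levels are TPM, as mean and SD over the mice. Totals leave out the spike-ins. Expected counts were made whole for the scaling, and ratios between the mice used TMM factors from edgeR 4.0.16 (R 4.3.3) after filterByExpr, a prior count of 0.5 and a minimum mean count of 50. Intervals are exact Clopper-Pearson at 95%. The ratio script was checked on simulated data. DESeq2 1.42.0 size factors, total count, spike-ins, other filters, the second quantifier, other thresholds and leaving out each mouse were tried as alternatives. Scripts ran in Python 3.11.15. Annotation and coding sequences came from GENCODE M21, promoters from the RefSeq table of GRCm38.p6.

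The genes, lists, pairs and forms were chosen with earlier results of these data known. By the rule for named genes, values in both mice are given for genes at a mean of 10 TPM or more, genes of pairs and those farthest apart, and for the 3 highest of each list of further genes; values of the remaining genes were added after they were seen. Some planned comparisons with other genes are not reported here.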

Additional observations from a re-analysis of the deposited data

How the results depend on the processing

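The median level of the 39 genes was 9.63 TPM with the second quantifier, 6.79 as FPKM, 22.003 TPM rescaled to nuclear coding genes and 7.40 TPM without the 6 genes that cardiomyocytes also make, and 7.93 and 9.26 TPM without either mouse. Their share of nuclear coding TPM was 1.11% with the second quantifier and 0.128% without those 6 genes. At 2 TPM 37 genes and at 5 TPM 27 genes were detected in both mice. The share of all genes at these thresholds is not given here. Of the 39 genes, the count at least 1.5-fold apart between the mice was 2 with DESeq2 size factors, 2 with total counts and 3 with spike-ins. It was 0 with the second quantifier and 0 at 2-fold. Among all tested genes, 103 were 1.5-fold higher in replicate 2 with TMM. That number was 108 with DESeq2 size factors, 123 with total counts, 238 with spike-ins and 82 with the second quantifier. Those higher in replicate 1 numbered 156 with TMM, and 147, 126, 93 and 173 in the same order. The median log2 ratio of the 39 was 0.23 with spike-ins, a scaling that moves all genes. Genes whose leading transcript differed numbered 6 among the 18 at 10 TPM or more with several transcripts and 3 where the leading transcript was at least 1.5 times the next in both tables. The median share on the leading transcript was 75.2%, and 62.2% on the same transcripts with the second quantifier. With 1 mismatch allowed in the A and T core, 3 of the 31 genes (Cnn2, Crip1 and Synm) had a CArG box, counted by gene, beside 9.98% of all windows, counted by window. Expected counts, not corrected for length, moved 28 of 34 pair ratios beyond the spread of the mice, 17 of them by over 1.5 times, and turned Steap4 over Steap3 to 1.17. The second quantifier moved 24 of the 34 beyond the spread of the mice and left 10 within it. Among those moved, Des over Vim went from 5.70 to 8.56 and Pln over Sln from 87.9 to 129. The second quantifier moved 3 (Tagln over Tagln2, Cnn2 over Cnn3 and Higd1b over Higd1a) by over 1.5 times. It turned 0 of those with 1 direction in both mice. Tagln over Tagln2, which has none, went from a mean of 1.19 to 0.776. No paired analysis was possible because there is 1 group. With 2 libraries, no difference between the mice has a replicate check, and genes under 200 counts have wide intervals.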

Other observations

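The 39 genes lie on 16 chromosomes, and pairs of related genes are neighbours. Gucy1b1 (chromosome 3, 82032006 to 82074689) and Gucy1a1 (82092427 to 82145789), subunits of 1 enzyme, lie 17.7 kb apart on the same strand with 0 coding genes between them, and stood at 5.56 and 6.60 TPM on average. Rgs5 and Rgs4 lie 45.7 kb apart on chromosome 1 on opposite strands, also with 0 coding genes between them, and stood at 106 and 4.25 TPM.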
